A study of Rattus norvegicus with 6 samples.

Results

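Cyclic nucleotides and calcium-bound calmodulin carry signals from receptors at the neuronal surface to kinases inside the cell. Adenylyl cyclases make cAMP, phosphodiesterases break cAMP and cGMP down, and protein kinase A (PKA) is released from its regulatory subunits when these bind cAMP. Calcium-bound calmodulin switches on the CaM kinases, of which CaMKII at hippocampal synapses is required for long-term potentiation. FMRP, the RNA-binding protein encoded by Fmr1, represses translation of the mRNAs it binds, and in mouse brain these include Camk2a, Adcy1 and Pde2a. The mRNA levels of this machinery were compared here between hippocampi of Fmr1 KO and WT rats, and no protein was measured.

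The members were all genes of the count table whose symbol begins with Adcy and a digit, Pde and a digit, Prkaca, Prkacb or Prkar, or Camk followed by 1, 2, 4 or k. They were 53 of 17455 genes and comprised 10 adenylyl cyclases, 25 genes with a phosphodiesterase symbol, 6 PKA subunits and 12 CaM kinase genes, including the CaMKII inhibitors. The rule uses names only. It also takes in Pde4dip, Pde6d and Pde12, which do not encode enzymes that break down cyclic nucleotides, and Pde6h, an inhibitory subunit of the cone enzyme.

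RNA was taken from the hippocampus of 3 WT and 3 Fmr1 KO males of the Long Evans line LE-Fmr1em2Mcwi, all aged 10 weeks, with 1 library per rat. The methods give 1 litter per group for the transcriptomic rats and do not say whether WT and KO rats shared it, and the part of litter was not tested. Reads counted in genes came to between 9619812 and 13390476 per library, and the members took 0.825% to 0.930% of them. Fmr1 itself had 47.6, 50.6 and 51.6 CPM (the read count normalised to library size with TMM factors) in WT replicates 1, 2 and 3 and 17.4, 13.1 and 11.6 CPM in KO replicates 1, 2 and 3. It was thus lower in every library labelled KO.

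The neuronal markers Rbfox3, Snap25, Syt1 and Tubb3 were detected in every library, with a summed level of 3170 to 3425 CPM in WT and 3184 to 3426 CPM in KO rats. Among the other marker lists, the summed level of 7 oligodendrocyte genes was 12890 to 13634 CPM in WT and 10230 to 11656 CPM in KO rats. Of the 7, 4 were lower at an unadjusted p under 0.05, where 5.15% of all tested genes were. That of 5 CA pyramidal cell genes was 1022 to 1205 CPM and 986 to 1093 CPM. The summed level of 6 striatal genes was 34.1 to 38.5 CPM in WT and 33.1 to 39.9 CPM in KO libraries. That of 5 choroid plexus genes was at least 10.5 CPM in the WT and at most 8.67 CPM in the KO libraries. These sums did not overlap, but only 2 of the 5 genes had enough counts to be tested. Ttr among them was at 46.0% of WT, with a 95% interval of 24.9% to 84.9% and an adjusted p of 0.438 in edgeR. Its own libraries overlapped, at 6.45, 7.41 and 9.88 CPM in WT and 1.76, 2.95 and 6.47 in KO rats. The part of dissection in the differences given here was not tested. The scores on principal component 1 of all tested genes (28.8% of the variance) were -19.6 and -12.4 for WT replicates 1 and 2. They were 5.49 to 11.0 for the KO libraries, and that of WT replicate 3 was 6.20. On component 2 (21.7% of the variance) WT replicate 3 scored lowest, at -12.8, and KO replicate 3 highest, at 20.1. Members with an unadjusted p under 0.05 once WT replicate 3 was left out are given with and without it. In whole tissue, fewer cells of a type and less RNA per cell cannot be told apart.

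Of the 53 members, 52 had at least 1 count, 48 had enough counts to be tested, and 2 had an unadjusted p under 0.05 between KO and WT rats, the limit set in the study's methods. Pde4c, a cAMP-specific phosphodiesterase, was higher in KO rats, and Camk2n1, an inhibitor of CaMKII, was lower. No member passed an adjusted p of 0.05 in edgeR or in DESeq2, and at an unadjusted p under 0.05 DESeq2 gave the same 2 genes. The background over all 11800 tested genes was 5.15% lower and 4.19% higher at the unadjusted threshold and 0.0254% at the adjusted one. At the unadjusted background, 4.49 members in both directions together would have passed, so the share among the members lay below it. The KO and WT libraries did not overlap in 2 members, Pde4c and Pde2a (4.17% of those tested), whereas they did not overlap in 14.7% of all genes.

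The log2 fold changes of KO over WT of the tested members had a median of -0.0023, with 25 negative and 23 positive values, and the median over all tested genes was 0.0017. Their median size without sign was 0.084, against 0.093 for all genes. The precision bounds how large a difference could have been missed. For 29 of the 48 members (60.4%) the 95% interval of the KO level lay wholly within 25% of WT on either side, as it did for 56.7% of all genes, and for 44 members it lay within 50%. The 5 members left out by the filter on low counts were the photoreceptor genes Pde6a, Pde6b, Pde6c and Pde6h and the soluble cyclase Adcy10. Pde6a had 0 counts in all 6 libraries, Pde6b, Pde6c and Pde6h had 0 to 5 counts per library, and Adcy10 had 4 to 12.

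**Figure D1:**
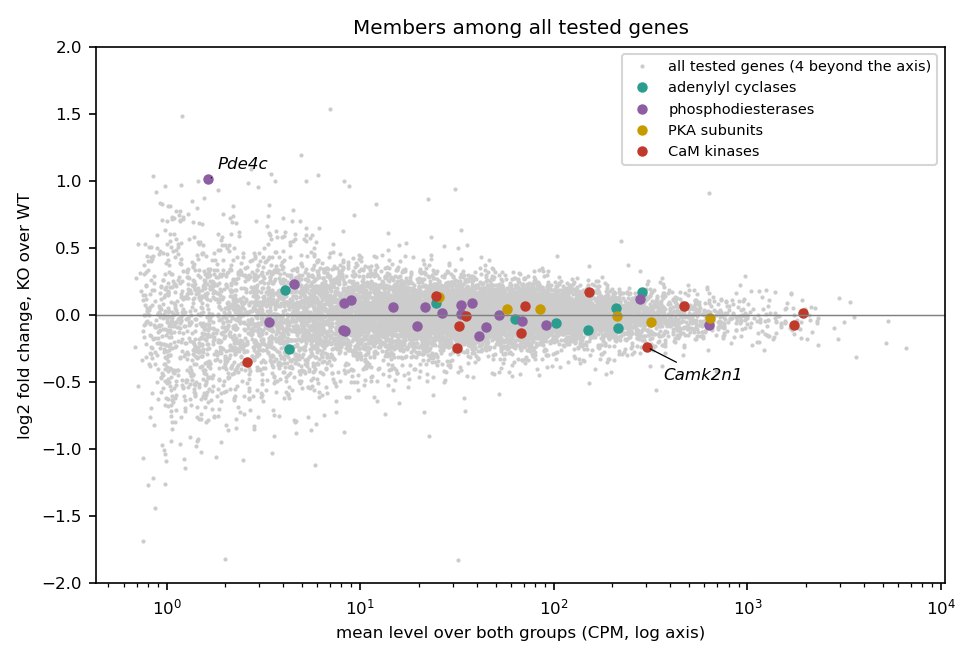
Log2 fold change of KO over WT against the mean level in CPM on a log axis, for all 11800 tested genes in grey (4 lie beyond the axis) and for the 48 tested members coloured by role. Pde4c, at a low level, and Camk2n1 are labelled, and the other members lie within the grey cloud around 0.

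**Figure D2:**
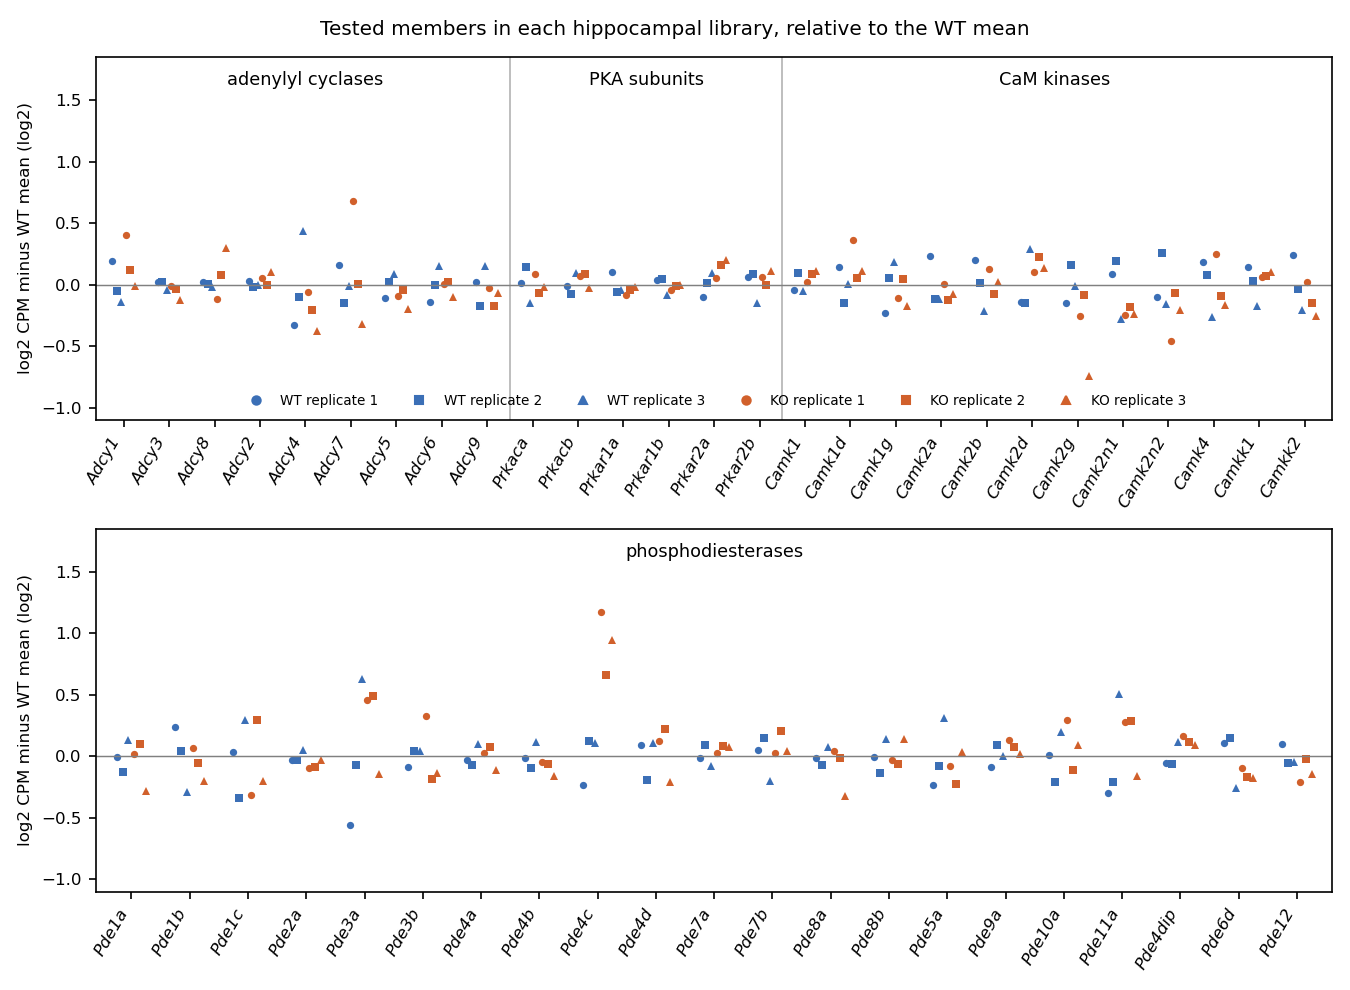
Log2 CPM of each tested member in each of the 6 libraries, minus the mean of the 3 WT libraries. Blue marks stand for WT and orange marks for KO libraries, and the marks of the groups overlap except in Pde4c and Pde2a.

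Among the membrane-bound adenylyl cyclases, none passed the test in either direction. Adcy1, the neuronal cyclase stimulated by calcium-bound calmodulin, had 304, 256 and 241 CPM in WT replicates 1 to 3 and 352, 288 and 264 CPM in KO replicates 1 to 3. The groups overlapped, and the highest library of each was replicate 1. Its log2 fold change was 0.17 (SE 0.12) with an adjusted p of 0.687 in edgeR, and the interval of the KO level ran from 93.9% to 136% of WT. Leaving out 1 library moved this value between 0.046 without KO replicate 1 and 0.28 without WT replicate 1, and the unadjusted p was under 0.05 without WT replicate 1 or KO replicate 3. Adcy8, the other calmodulin-stimulated cyclase of the hippocampus, and Adcy3, the cyclase of olfactory and neuronal cilia, had log2 fold changes of 0.09 (SE 0.11) and -0.06 (SE 0.07).

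Adcy5 and Adcy6, which calcium inhibits, had log2 fold changes of -0.11 (SE 0.07) and -0.03 (SE 0.08). Adcy5 had 144, 158 and 165 CPM in WT rats and 146, 151 and 135 CPM in KO rats. Only KO replicate 3 lay below all WT libraries. Leaving out 1 library moved Adcy5 between -0.07 and -0.16, and its unadjusted p was under 0.05 without WT replicate 1. Adcy9, the cyclase that responds least to forskolin, had 224, 195 and 245 CPM in WT and 217, 195 and 210 in KO rats, a log2 fold change of -0.10 (SE 0.08). It was -0.18 without WT replicate 2, with an unadjusted p under 0.05, and -0.02 without WT replicate 3. Adcy2, which G protein beta-gamma subunits stimulate, was among the least variable cyclases, at 205 ± 3.63 CPM in WT and 213 ± 7.74 in KO rats (mean ± SD, n = 3 per group), and the interval of its KO level was 95.2% to 113% of WT. Adcy4 and Adcy7, of the same class, had 3.03 to 6.21 CPM in every library, and their intervals were wide, from 58.8% to 120% and from 77.5% to 168% of WT. The adjusted p of the 9 tested cyclases was 0.646 or higher. The cyclases summed to 1013 to 1078 CPM in WT and 1020 to 1128 CPM in KO libraries, which overlapped.

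The phosphodiesterases held the member with the smallest p. Pde4c had 10, 15 and 14 counts in WT replicates 1, 2 and 3 and 28, 24 and 21 counts in KO replicates 1, 2 and 3. Every KO library was above every WT library. In CPM these were 0.872, 1.17 and 1.15 in WT and 2.59, 1.77 and 2.19 in KO rats, a log2 fold change of 1.01 (SE 0.31) with an adjusted p of 0.341 in edgeR, which ranked 197 of the 11800 tested genes by p. The interval of the KO level was 127% to 322% of WT. Pde4c passed an unadjusted p of 0.05 under all 11 alternatives, with log2 fold changes from 0.87 without KO replicate 1 to 1.16 without KO replicate 2. Its adjusted p under those alternatives ranged from 0.150 without WT replicate 3 to 0.839 without KO replicate 1, and DESeq2 gave none.

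**Figure D3:**
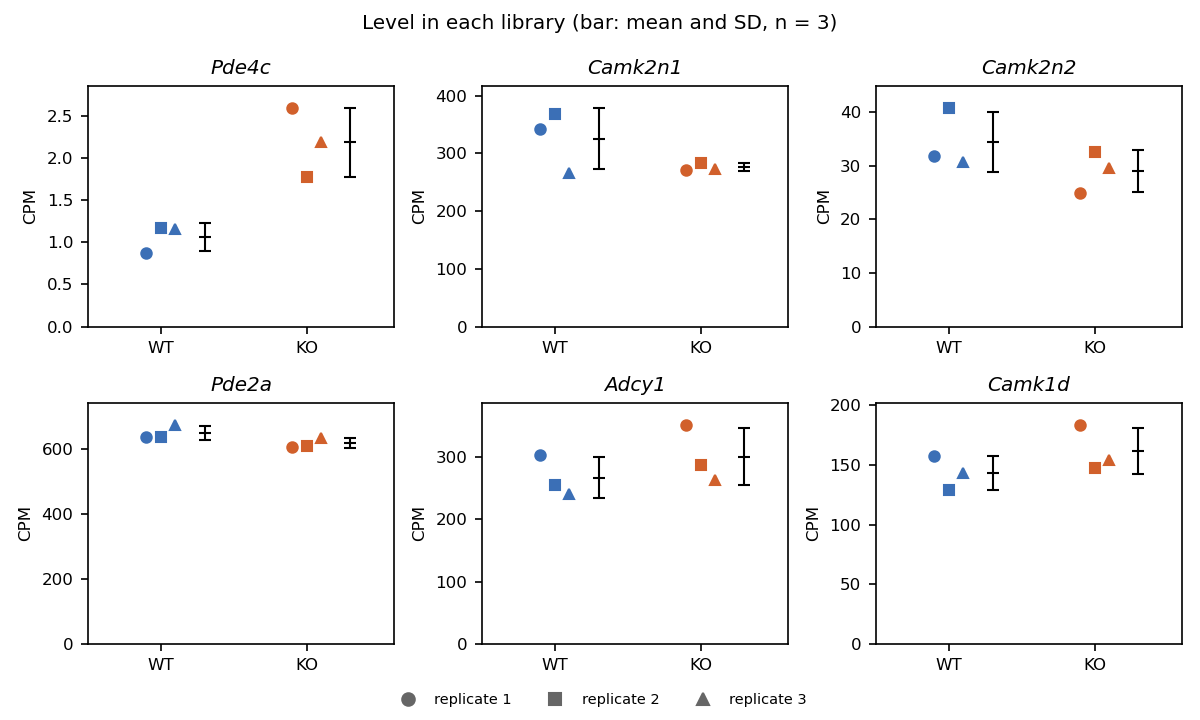
CPM of Pde4c, Camk2n1, Camk2n2, Pde2a, Adcy1 and Camk1d in each library from a zero baseline, with the mean and SD of the 3 libraries of each group beside them. The groups are apart in Pde4c and, by a small margin, in Pde2a; in Camk2n1 WT replicate 3 lies below the 3 KO libraries.

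The 3 other PDE4 genes, which encode the rolipram-sensitive enzymes of brain, had log2 fold changes within 0.1 of 0. Pde4d had 22.5, 18.4 and 22.7 CPM in WT and 23.1, 24.7 and 18.3 in KO rats, a log2 fold change of 0.06 (SE 0.13). The groups overlapped, with KO libraries above and below the WT range. Pde4a and Pde4b had intervals of the KO level of 88.6% to 113% and 83.0% to 106% of WT. No test of Pde4c against its paralogs was made. Of the other cAMP-specific enzymes, Pde7a, Pde7b, Pde8a and Pde8b had log2 fold changes between -0.08 for Pde8a and 0.09 for Pde7b, with adjusted p of 0.865 or higher.

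Pde2a, which cGMP activates and which breaks down cAMP and cGMP, was the phosphodiesterase with the narrowest interval. It had 636, 637 and 673 CPM in WT and 606, 610 and 634 in KO rats. The lowest WT and the highest KO library were 636.0 and 634.4 CPM, so the groups were separated by less than the SD within either. Its log2 fold change was -0.07 (SE 0.06) with an adjusted p of 0.723, and the interval of the KO level was 87.3% to 103% of WT. Pde3a and Pde3b, which cGMP inhibits, had log2 fold changes of 0.23 (SE 0.29) and 0.01 (SE 0.13). That of Pde3a was 0.62 without WT replicate 3 (adjusted p = 0.257) and -0.0072 without WT replicate 1. The calmodulin-dependent Pde1a, Pde1b and Pde1c had values of -0.04, -0.07 and -0.05, and Pde1b had -0.20 without WT replicate 3 (adjusted p = 0.233) and 0.05 without WT replicate 1. The cGMP-specific Pde5a and Pde9a had values of -0.11 (SE 0.18) and 0.08 (SE 0.09).

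Pde10a, a dual-specificity enzyme best known from striatal neurons, had 36.8, 31.6 and 41.8 CPM in WT and 44.7, 33.8 and 38.8 in KO rats. The groups overlapped, and the log2 fold change was 0.09 (SE 0.12) with an adjusted p of 0.862. Pde11a, which in rodent brain is concentrated in the ventral hippocampus, had 6.71, 7.18 and 11.9 CPM in WT and 10.1, 10.2 and 7.41 in KO rats. Its log2 fold change was 0.11 (SE 0.22), and without WT replicate 3, its highest WT library, it was 0.42 with an adjusted p of 0.262, while without WT replicate 1 it was -0.03.

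The 3 genes that carry a phosphodiesterase symbol without being such an enzyme included those with the next smallest p. Pde4dip, or myomegalin, a centrosome and Golgi protein that anchors PDE4D, had 255, 254 and 288 CPM in WT and 297, 287 and 283 in KO rats. WT replicate 3 lay among the KO libraries, and the log2 fold change was 0.12 (SE 0.06) with an adjusted p of 0.563. Pde6d, a chaperone of prenylated proteins, had 46.4, 47.8 and 36.0 CPM in WT and 40.4, 38.4 and 38.1 in KO rats, a log2 fold change of -0.16 (SE 0.10) with an adjusted p of 0.673. Here WT replicate 3 lay below every KO library. Without it, the log2 fold change was 0.18 for Pde4dip (adjusted p = 0.112) and -0.27 for Pde6d (adjusted p = 0.103). Pde12, an enzyme that trims mitochondrial RNA, had a log2 fold change of -0.12 (SE 0.15).

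None of the 6 PKA subunits passed the unadjusted threshold in edgeR, and their log2 fold changes ran from -0.05 to 0.14. Prkaca, the main catalytic subunit, had 214, 234 and 192 CPM in WT and 225, 203 and 210 in KO rats. The KO libraries lay inside the WT range, and the KO level was 99.7% of WT, with an interval of 89.3% to 111%. Prkacb, the other catalytic subunit, had 82.5, 78.8 and 88.9 CPM in WT and 87.6, 88.2 and 81.9 in KO rats, with an interval of 92.7% to 115% of WT.

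Prkar1b, the regulatory subunit most restricted to neurons, had 661, 667 and 610 CPM in WT and 627, 641 and 642 in KO rats, with an interval of 90.4% to 108% of WT. Prkar1a, the widely expressed type I subunit, had 346, 310 and 312 CPM in WT and 303, 313 and 318 in KO rats, a log2 fold change of -0.05 (SE 0.06). In both type I genes the groups overlapped. Prkar2a, a type II subunit that binds anchoring proteins, had 22.7, 24.5 and 25.9 CPM in WT and 25.2, 27.2 and 28.0 in KO rats. Its log2 fold change was 0.14 (SE 0.10) with an adjusted p of 0.70, and Prkar2b had 0.05 (SE 0.08). The PKA subunits summed to 1279 to 1384 CPM in WT and 1326 to 1339 CPM in KO libraries.

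None of the kinases of the CaM kinase group passed either threshold in edgeR, while 1 of the 2 inhibitor genes passed the unadjusted one. Camk2a, the forebrain CaMKII subunit, had 2070, 1627 and 1630 CPM in WT and 1773, 1616 and 1672 in KO rats. WT replicate 1 stood above the other libraries, which lay close together. The log2 fold change was -0.07 (SE 0.09) with an adjusted p of 0.840, the interval of the KO level was 83.2% to 109% of WT, and without WT replicate 1 the log2 fold change was 0.05. Camk2b, the actin-binding subunit, had 2203, 1943 and 1658 CPM in WT and 2100, 1819 and 1954 in KO rats. Its log2 fold change was 0.02 (SE 0.09), with an interval of 87.6% to 117% of WT. Camk2d had a value of 0.14 (SE 0.12), and 0.30 with an adjusted p of 0.146 without WT replicate 3. Camk2g, counted with only 16 to 42 reads per library, had 2.62, 3.28 and 2.88 CPM in WT and 2.41, 2.73 and 1.67 in KO rats, a log2 fold change of -0.35 (SE 0.26). These 4 genes summed to 3320 to 4297 CPM in WT and 3465 to 3900 CPM in KO libraries.

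Camk2n1 encodes a small neuronal protein that binds the catalytic domain of CaMKII and blocks its activity. It had 342, 369 and 266 CPM in WT replicates 1, 2 and 3 and 272, 284 and 273 CPM in KO replicates 1, 2 and 3. The SD was 53.1 CPM in WT and 6.58 in KO rats. WT replicates 1 and 2 lay above all KO libraries and WT replicate 3 below all of them, so the groups overlapped. The log2 fold change was -0.24 (SE 0.10) with an adjusted p of 0.517 in edgeR, which ranked 951 of the tested genes by p, and the KO level was 84.9% of WT with an interval of 72.5% to 99.3%. Without WT replicate 3, which scored like the KO libraries on principal component 1, the log2 fold change was -0.36 and the adjusted p 0.0126. That fit gave 256 of all tested genes an adjusted p under 0.05, against 3 with all 6 libraries, so the call was not particular to Camk2n1. Without any other library the log2 fold change of Camk2n1 was between -0.14, without WT replicate 2, and -0.26, without KO replicate 2. No such fit passed an unadjusted p of 0.05. The adjusted p over all alternatives ranged from 0.0126 to 0.897. Summed marker levels moved with it in part. The oligodendrocyte markers were highest in WT replicate 2 and lowest of the WT libraries in replicate 3, as Camk2n1 was, but were 12890 CPM there and at most 11656 CPM in the KO libraries. The CA pyramidal markers had 1205, 1144 and 1022 CPM in WT and 1093, 986 and 1026 in KO rats. Of these, 2 of 4 tested, Mpped1 and Bok, passed the unadjusted threshold with lower KO levels, where 5.15% of all tested genes did. Wfs1 did not pass it (log2 fold change -0.14, SE 0.12), and Neurod6, which did not either, was in the other direction (0.05, SE 0.08). The part of either cell type in the difference was not tested.

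Camk2n2, the paralog of Camk2n1, had 31.9, 40.8 and 30.6 CPM in WT and 24.8, 32.6 and 29.7 in KO rats. Replicate 2 was the highest library in both groups, and the groups overlapped. Its log2 fold change was -0.25 (SE 0.13) with an adjusted p of 0.555, close in size to that of Camk2n1, with an interval of 69.7% to 102% of WT. This value was -0.10 without WT replicate 2 and -0.34 without KO replicate 2, and the unadjusted p was under 0.05 without KO replicate 2 or without WT replicate 3 (-0.32).

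Promoters of a CaMKII gene and of a CaMKII inhibitor are shown that hold the core, but not the whole, of the CREB motif. They are shown because cAMP signalling acts on transcription through CREB. The binding site of CREB, the cAMP response element, has the letters TGACGTCA. In the RefSeq promoter set of the GRCr8 assembly 38 of the 53 members had an entry, with 52 promoters between them. The 250 bases before each start were searched on both strands. The whole element was in 0 of the 52 and in 1.59% of all 33469 promoters. Its core TGACG, on the opposite strand CGTCA, was in 12 of the 52 (23.1%) and in 18.2% of all promoters. It was found in promoters of Adcy9, Camk1, Camk2a, Camk2n2, Camkk1, Pde10a, Pde4a, Pde4d, Pde8a and Prkaca. Camk2b, Camk2d and Camk2g had an entry without the core, and Camk2n1 and Pde4c had no entry. A match describes letters and not a bound site. In the lines below the core is in capitals; both genes are on the plus strand, Camk2a at chr18:56648930-56649179 and Camk2n2 at chr11:93793845-93794094 of GRCr8.
Camk2a: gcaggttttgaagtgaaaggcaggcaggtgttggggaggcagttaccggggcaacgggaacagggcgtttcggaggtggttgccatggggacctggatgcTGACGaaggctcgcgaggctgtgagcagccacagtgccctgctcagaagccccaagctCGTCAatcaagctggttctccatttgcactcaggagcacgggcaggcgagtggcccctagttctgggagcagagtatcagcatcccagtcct
Camk2n2: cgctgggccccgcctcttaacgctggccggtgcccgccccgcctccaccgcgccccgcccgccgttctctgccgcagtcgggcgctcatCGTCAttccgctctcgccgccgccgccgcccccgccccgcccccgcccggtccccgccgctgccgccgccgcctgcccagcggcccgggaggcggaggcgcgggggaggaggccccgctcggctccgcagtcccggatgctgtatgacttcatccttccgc
Camk2a held the core on either strand, 146 bases before the start as written and 88 bases before it on the opposite strand, and Camk2n2 held it 157 bases before the start on the opposite strand. The RNA levels of both genes overlapped between the genotypes, as given above.

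The kinases that act outside CaMKII also overlapped between the groups. Camk1d, a CaMKI isoform, had 158, 129 and 143 CPM in WT and 184, 148 and 154 in KO rats. Only KO replicate 1 lay above every WT library, and the log2 fold change was 0.18 (SE 0.09) with an adjusted p of 0.565. The log2 fold change was 0.07 without KO replicate 1, and the unadjusted p was under 0.05 without WT replicate 1 (0.25) or KO replicate 2 (0.24). Camk1 and Camk1g, the other CaMKI isoforms, had values of 0.07 (SE 0.07) and -0.08 (SE 0.11). Camk4, the nuclear kinase that phosphorylates CREB, had 39.9, 37.0 and 29.2 CPM in WT and 41.7, 32.8 and 31.1 in KO rats, a KO level of 99.7% of WT with an interval of 81.5% to 122%. Camkk1 and Camkk2, the kinases that activate CaMKI and CaMKIV, had log2 fold changes of 0.07 (SE 0.07) and -0.13 (SE 0.11). That of Camkk2 was -0.23 without WT replicate 3 (adjusted p = 0.242) and -0.0067 without WT replicate 1.

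**Figure D4:**
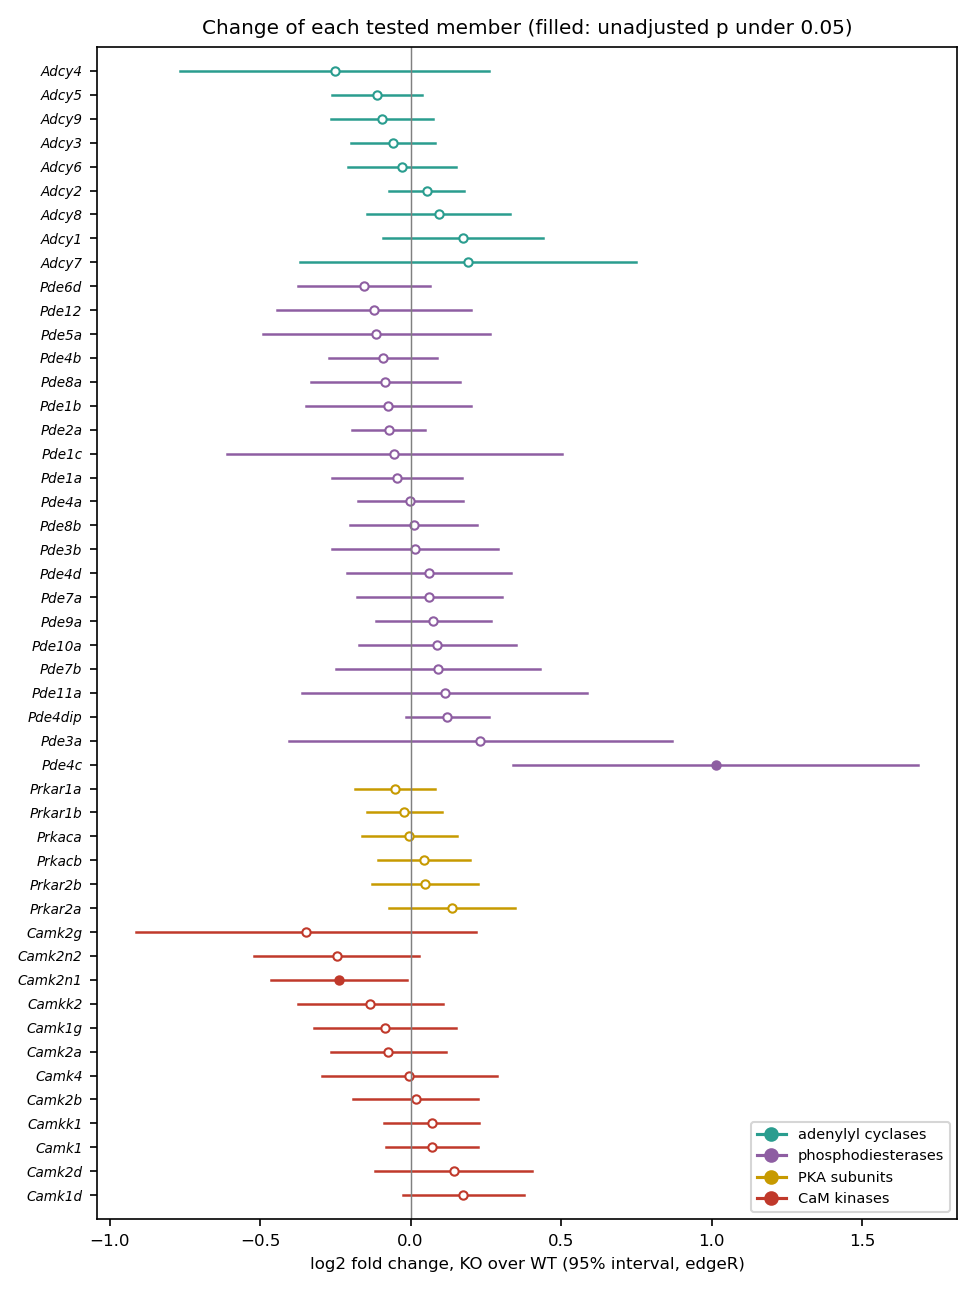
Log2 fold change of KO over WT of the 48 tested members, with the 95% interval from edgeR, grouped by role and ordered by size. Filled points, Pde4c and Camk2n1, passed an unadjusted p of 0.05; the intervals of all other members include 0.

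Ratios of counts between members of a family were compared within libraries, where library size cancels, and each was set against the same ratio in the other genotype. With 3 libraries against 3, the exact two-sided permutation test allows no p below 0.1. The ratio of the type I to the type II regulatory subunits of PKA was 12.4, 11.6 and 12.1 in WT and 11.1, 11.5 and 10.9 in KO rats. All KO ratios were below all WT ratios (log2 difference -0.11, exact permutation p = 0.1, adjusted p = 0.45 over the 6 ratios), and the direction was the same without any 1 library. The ratio of the CaMKII inhibitors to the 4 CaMKII genes was 0.0870, 0.114 and 0.0895 in WT and 0.0761, 0.0913 and 0.0829 in KO rats, which overlapped (log2 difference -0.21, exact permutation p = 0.3). That of Adcy1 and Adcy8 to Adcy5 and Adcy6 was 1.63, 1.26 and 1.12 in WT and 1.78, 1.45 and 1.51 in KO rats (log2 difference 0.25, exact permutation p = 0.3). The groups overlapped here too, since WT replicate 1 lay above KO replicates 2 and 3. Camk2a to Camk2b, Prkaca to Prkacb and the phosphodiesterases of cyclic nucleotides to the cyclases differed by -0.09, -0.04 and -0.06 on the log2 scale (exact permutation p = 0.4, 0.8 and 0.3).

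**Figure D5:**
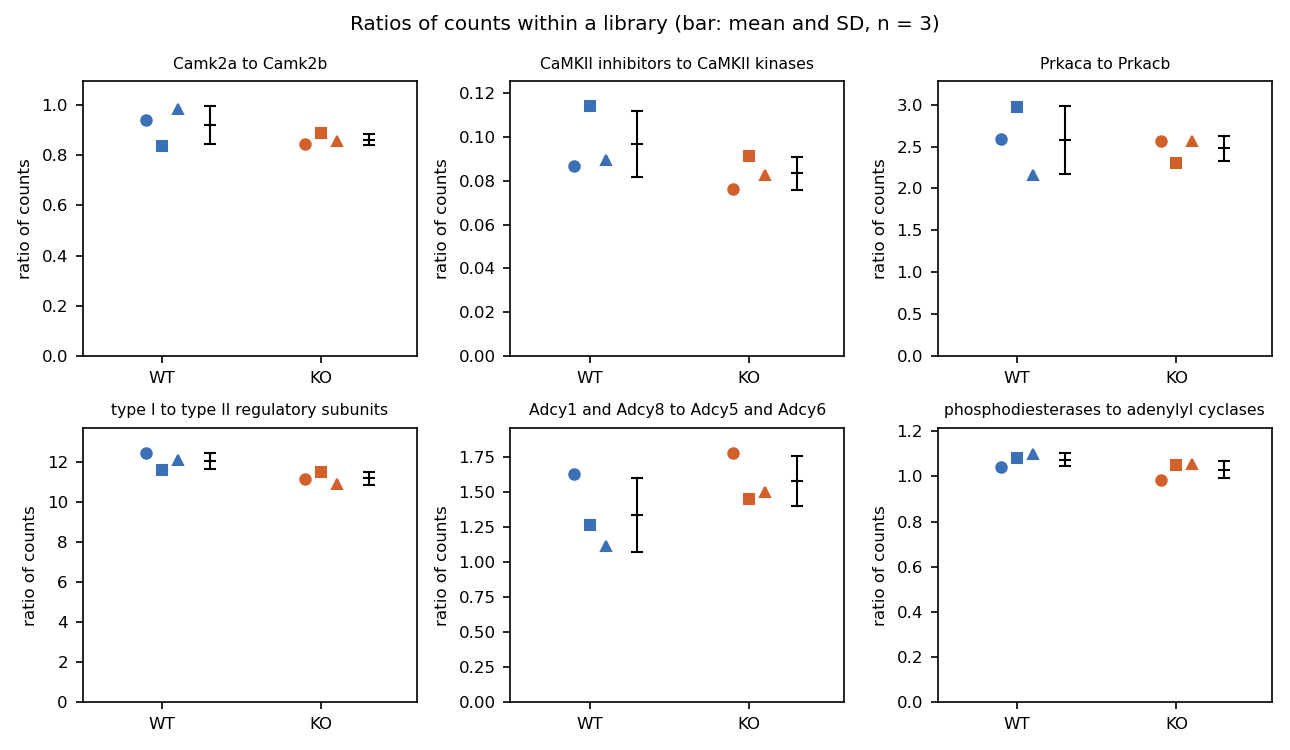
The 6 ratios of summed counts in each library, from a zero baseline, with the mean and SD of the 3 libraries of each group. The groups are apart only for the type I to type II regulatory subunits of PKA, at 11.6 to 12.4 in WT and 10.9 to 11.5 in KO libraries.

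Around these members, genes of the same pathways were counted from fixed lists. Of 13 tested anchoring proteins of PKA, 3 (2 with DESeq2, which did not call Akap10) had an unadjusted p under 0.05, all higher in KO rats, where 4.19% of all genes were, with a median log2 fold change of 0.02. Akap9, a centrosomal and Golgi anchor, had 116, 119 and 134 CPM in WT and 152, 135 and 140 in KO rats, and its KO libraries were all above its WT libraries, the closest pair by less than 1 CPM (log2 fold change 0.21, adjusted p = 0.396). For Akap8, a nuclear anchor, the log2 fold change was 0.18 (adjusted p = 0.474), and for Akap10, a mitochondrial anchor, it was 0.22 (adjusted p = 0.515). Akap5, the anchor of PKA and calcineurin at the postsynaptic density, had 52.8, 44.0 and 53.1 CPM in WT and 52.3, 53.1 and 44.0 in KO rats. Its groups spanned the same range.

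All 7 tested genes of the CREB family and its coactivators had a positive log2 fold change (median 0.08, against 0.0017 for all genes, of which 5957 of 11800 were positive), and 2 of them, both higher in KO rats, had an unadjusted p under 0.05 in edgeR, but neither did in DESeq2. These were Creb1, with 5.76, 5.23 and 6.67 CPM in WT and 8.43, 8.78 and 6.47 in KO rats (log2 fold change 0.43, adjusted p = 0.482), and the coactivator Crtc2 (0.21, adjusted p = 0.497). In both the groups overlapped. Summed over the list, the level was 293, 298 and 317 CPM in WT and 327, 322 and 319 in KO rats, with WT replicate 3 closest to the KO libraries. Crem, whose transcripts include inducible repressors of cAMP-driven transcription, had 20.9, 24.3 and 21.8 CPM in WT and 16.2, 24.9 and 29.4 in KO rats.

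Single genes passed the unadjusted threshold of edgeR in 3 other lists, all lower in KO rats, where 5.15% of all tested genes were lower at that threshold. With DESeq2 Npr1 did not pass it, and Ppp1cb, a catalytic subunit of protein phosphatase 1, passed it with higher KO levels (edgeR log2 fold change 0.12, adjusted p = 0.548). The edgeR genes were the natriuretic peptide receptor and guanylyl cyclase Npr1, 1 of 10 genes of cGMP synthesis and action (log2 fold change -0.28, adjusted p = 0.483), the calmodulin-binding transcription factor Camta2, 1 of 8 genes of calmodulin and its binding proteins (-0.13, adjusted p = 0.533), and Ppp1r9b, or spinophilin, which targets protein phosphatase 1 to dendritic spines, 1 of 9 genes of that phosphatase (-0.14, adjusted p = 0.474). None of 8 calcineurin genes, 3 inhibitor peptides of PKA, 6 other cAMP effectors and 14 further genes listed with the CaM kinase family passed it. Nrgn, a calmodulin-binding protein of the postsynapse, had a log2 fold change of -0.10 (SE 0.08). No gene of these lists passed an adjusted p of 0.05 in edgeR or DESeq2.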

How the data were processed

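Per the labels and the methods, the authors mapped the reads of 6 hippocampal libraries to the rn6 build with HISAT2, and HTSeq (htseq-count, "intersection non-empty") assigned them to genes; the tool versions, the annotation and the strand setting are not given in the sources used here. The deposited values are raw counts without normalization. The authors' other table, which holds only their DESeq2 comparison, was not used.

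The whole table was fitted with edgeR 4.0.16 under R 4.3.3. After filterByExpr (minimum count 10), libraries were scaled by TMM and genes tested with the two-sided robust quasi-likelihood test with genotype as the only term, and p-values were adjusted by Benjamini-Hochberg over all 11800 genes. Levels are CPM with TMM factors. SE and 95% intervals come from the same fit. The fit was tested on simulated data with known changes. Alternatives were DESeq2 1.42.0, its size factors, upper-quartile factors, no filter on low counts, the replicate number as a block, and leaving out each library. Columns of counts left unassigned numbered 0.

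Members and gene lists were chosen with earlier results of these data known. The members given per library were those at an unadjusted p under 0.05, the 3 of each role with the next smallest p, and Camk2a, Camk2b, Camk2n1, Adcy1, Pde2a, Pde4d, Pde10a, Prkaca, Prkacb and Prkar1b. From each pathway list, up to 4 genes at an unadjusted p under 0.05 were named. Pde11a, Camk4, Akap5, Crem, Nrgn, Ppp1cb and Ttr were added after their values were seen. In GRCr8, 11 members overlap another named coding gene, among them Prkaca, Prkar1a, Prkar1b, Pde1b, Pde11a, Camk1 and Camkk2, so their reads may be shared in part.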

Additional observations from a re-analysis of the deposited data

How the results depend on the processing

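The count of 2 members at an unadjusted p under 0.05 (1 lower, 1 higher) was the same with DESeq2, with its size factors, with upper-quartile factors and with no filter on low counts. With the replicate block it was 5 (2 lower, 3 higher), adding Adcy1, Camk1d and Camk2n2. Of all 11800 tested genes 1109 passed the unadjusted threshold with the block, against 1103 without it. With the block 17 genes in all passed an adjusted p of 0.05, where the count without it was 3. Neither the labels nor the methods say whether the replicate numbers pair the rats. The deviations of same-numbered libraries correlated at 0.03, -0.0088 and -0.08, and not every library correlated best with its own number. With 3 libraries per group, such correlations cannot decide whether the rats were paired. Leaving out 1 library gave 1 to 10 members (0 to 5 lower, 1 to 5 higher), the 10 without WT replicate 3 (Camk2n1, Camk2n2, Camkk2, Pde1b and Pde6d lower, Camk2d, Pde3a, Pde4c, Pde4dip and Pde11a higher) and the 1 without KO replicate 1. Members at an adjusted p under 0.05 then numbered 0 to 1, the 1 being Camk2n1 without WT replicate 3. Over all tested genes, leaving out 1 library gave 701 to 2095 genes at the unadjusted threshold, against 1103, and 1 to 256 at the adjusted one. The 2095 and the 256 were of 11891 tested genes without WT replicate 3, the fit that gave the 10 of 48 tested members. Without KO replicate 1, 702 of 11922 genes passed the unadjusted threshold. The count at the adjusted threshold was 35 with DESeq2 and 9 with no filter on low counts. The cause of these shifts was not tested. The ratio of Prkaca to Prkacb turned to a log2 difference of 0.065 without WT replicate 2 and 0.0076 without KO replicate 2, from -0.04, within a leave-one-out range of -0.16 to 0.065. No scaling moved the median log2 fold change by over 0.1. No value of a member changed sign where it passed the unadjusted threshold. At 3 rats per group and under 20 counts per WT library, the size of the Pde4c difference is known only to its interval.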

Other observations

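The spread among WT and among KO rats was compared by counts only, and its difference was not tested. The SD of log2 CPM over 3 libraries was larger in WT for 10 of the 12 tested CaM kinase genes, 6 of 6 PKA subunits, 12 of 21 phosphodiesterase genes and 4 of 9 cyclases, or for 32 of all 48 tested members, where it was larger in WT for 56.6% of all genes. Its median over the CaM kinase genes was 0.21 in WT and 0.11 in KO rats, and over all genes 0.12 and 0.10. The summed level of the CaM kinase genes was 5550, 4813 and 4359 CPM in WT replicates 1, 2 and 3 and 5071, 4611 and 4792 CPM in KO replicates 1, 2 and 3, so that the KO libraries lay inside the WT range. The summed level of 3 dentate granule cell markers, Prox1, C1ql2 and Calb1, ordered the WT and the KO libraries in the same way within each group, with 253, 212 and 186 CPM in WT and 215, 199 and 212 CPM in KO rats. So did that of the 5 CA pyramidal cell markers, with 1205, 1144 and 1022 CPM in WT and 1093, 986 and 1026 CPM in KO rats. In KO rats none of the 3 dentate genes had this order by itself. The calcineurin list, which marks no cell type, had it too, with 3319, 3078 and 2825 CPM in WT and 3270, 2884 and 3083 CPM in KO rats. The neuronal markers did not, with 3425, 3170 and 3230 CPM in WT and 3373, 3184 and 3426 CPM in KO rats. The part of dissection or of cell makeup in this spread was not tested.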
